A study of Mus musculus with 2 samples.

Results

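The 2-cell-like state genes described here were Zscan4c, Zscan4d, Zscan4f, Tcstv1, Tcstv3 and Zfp352, 6 of the 22556 genes in the count table, chosen by name and each found as 1 row. Their mRNA was counted in iXist-ChrX-Dom cells, a mouse embryonic stem cell (mESC) line with 2 X chromosomes, 1 of domesticus (129S) and 1 of castaneus origin, in which Xist had not been induced. In this line a TetOn promoter had been placed in front of Xist on the domesticus X chromosome, and both libraries came from cells without doxycycline (0 h). The titles and source names call these ES cells, whereas the cell type label runs from mESC to NPC (neural precursor cells) and does not say which of them a library holds. The cells were grown in medium with serum and LIF on feeder cells, which were depleted by pre-plating before RNA was taken. The series has 1 group of 2 replicates and no second condition, so levels and their spread are given, with no comparison of treatments. Nothing in the labels says whether the replicates were separate cultures, and the p-values below measure only the difference between these 2 libraries.

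Cultures of mESCs hold a small and changing fraction of cells that briefly switch on genes otherwise transcribed in the embryo at the 2-cell stage, when the zygotic genome is first activated. Zscan4 genes encode nuclear proteins with a SCAN domain and zinc fingers, known for their part in telomere lengthening and genome stability of mESCs. The Tcstv genes are short 2-cell-stage genes that also bear on telomere length, and Zfp352 encodes a zinc finger protein of the same stage. The double homeobox factor Dux is a known activator of this programme. In bulk RNA, few cells with much of a transcript and many cells with little of it cannot be told apart.

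All members but Zfp352 sit in families of closely similar copies, which limits what a count of fragments can say about 1 gene, so their sequences come first. Zscan4c, Zscan4d and Zscan4f each have a coding sequence of 1521 bases in GENCODE M21 (the GRCm38 annotation). Zscan4c and Zscan4f differed at 6 of these bases (99.6% identity), and Zscan4d differed from each of the other two at 35 (97.7%). Over the 3 genes 38 positions varied. The stretch of 81 bases with the most differences, from coding base 1040 to 1120, holds 8 of them, shown in capitals.
Zscan4c: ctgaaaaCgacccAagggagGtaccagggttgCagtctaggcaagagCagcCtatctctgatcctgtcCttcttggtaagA
Zscan4d: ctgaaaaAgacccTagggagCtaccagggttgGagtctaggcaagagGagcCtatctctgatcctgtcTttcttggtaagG
Zscan4f: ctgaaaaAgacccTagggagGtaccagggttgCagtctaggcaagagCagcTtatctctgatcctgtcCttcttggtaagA

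A stretch of 81 bases, the length of 1 read in the study, more often looked like the next set, from coding base 87 to 167, where 1 base varied, the median over all 1441 such stretches. The capital marks that base.
Zscan4c: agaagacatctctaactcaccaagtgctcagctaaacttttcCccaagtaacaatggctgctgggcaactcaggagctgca
Zscan4d: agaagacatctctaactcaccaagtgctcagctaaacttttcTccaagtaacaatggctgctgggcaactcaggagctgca
Zscan4f: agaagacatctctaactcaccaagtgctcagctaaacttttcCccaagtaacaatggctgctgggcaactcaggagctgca

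No base varied in 366 of the 1441 stretches (25.4%), and the longest run shared by all 3 genes was 233 bases. A read from such a stretch could not be given to 1 of the 3 genes on its own sequence. Tcstv1 (516 coding bases) and Tcstv3 (510) were less alike. They differed at 27 of 510 aligned bases (94.7% identity), with a median of 4 variable positions per 81 bases, and 39 of 422 stretches (9.24%) held none. The pair is shown from coding base 62 to 142, a stretch at that median, with the differing bases in capitals.
Tcstv1: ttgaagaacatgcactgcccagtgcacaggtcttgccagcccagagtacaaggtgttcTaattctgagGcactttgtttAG
Tcstv3: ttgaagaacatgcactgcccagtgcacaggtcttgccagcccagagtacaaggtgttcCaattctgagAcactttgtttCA

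Uniqueness was then measured over whole transcripts, as the share of 81-base words of a gene's transcripts that occur in no other gene of GENCODE M21 on either strand. By this measure 97.7% of Zfp352, 94.2% of Tcstv1 and 87.3% of Tcstv3 were unique. The Zscan4 genes were far lower, with 62.9% for Zscan4d, 23.0% for Zscan4c and 17.3% for Zscan4f. Zscan4f shared 70.7% of its words with the pseudogene Zscan4-ps2, and Zscan4c shared 59.2% with Zscan4f. Words of 200 bases, nearer to a whole fragment, raised the unique share to 93.4% for Zscan4d, 50.7% for Zscan4c and 27.6% for Zscan4f. Words of 50 bases lowered it to 50.4%, 14.5% and 13.2%. Copies outside the annotation are not seen by this measure. Sequence variants of the parental strains of these hybrid cells are not seen either, since the transcripts are those of the reference genome.

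The promoters of the Zscan4 members were likewise near copies of each other. RefSeq (GRCm38.p6) gave a window for 4 of the 6 members, and none was at hand for Tcstv1 and Tcstv3. The 250 bases before each start are printed below, because the members fall into separate groups by them. Capitals in the Zscan4 windows mark TGATAGAATCA, which matches the motif ascribed to Dux when read on the other strand (any base was allowed at 2 inner positions), and TATAAA. Capitals in the Zfp352 window mark TAATCC, the core bound by homeobox factors of the OTX and OBOX kind.
Zscan4c, chr7:11005495-11005744, plus strand: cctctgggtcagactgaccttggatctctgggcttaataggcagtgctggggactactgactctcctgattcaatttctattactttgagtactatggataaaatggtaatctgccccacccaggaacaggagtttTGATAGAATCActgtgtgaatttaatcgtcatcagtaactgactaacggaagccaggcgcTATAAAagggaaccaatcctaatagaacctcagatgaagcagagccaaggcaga
Zscan4d, chr7:11166149-11166398, minus strand: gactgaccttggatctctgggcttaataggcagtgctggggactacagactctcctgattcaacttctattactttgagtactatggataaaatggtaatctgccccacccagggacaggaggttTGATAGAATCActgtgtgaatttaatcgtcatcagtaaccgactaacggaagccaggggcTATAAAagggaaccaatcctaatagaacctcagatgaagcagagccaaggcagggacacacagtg
Zscan4f, chr7:11397665-11397914, plus strand: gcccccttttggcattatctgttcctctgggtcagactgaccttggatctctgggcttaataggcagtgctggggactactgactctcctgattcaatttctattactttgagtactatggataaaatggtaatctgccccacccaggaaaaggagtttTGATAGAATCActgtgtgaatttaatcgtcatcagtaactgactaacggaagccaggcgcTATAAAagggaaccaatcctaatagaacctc
Zfp352, chr4:90218570-90218819, plus strand: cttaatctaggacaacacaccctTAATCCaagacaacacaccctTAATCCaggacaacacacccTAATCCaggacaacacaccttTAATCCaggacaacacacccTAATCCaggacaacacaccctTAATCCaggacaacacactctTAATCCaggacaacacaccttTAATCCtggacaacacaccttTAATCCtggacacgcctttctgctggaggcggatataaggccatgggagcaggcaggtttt

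Motifs were searched on both strands of these windows and did not overlap one another. The Dux motif was found once in each Zscan4 window, starting 114 bases before the start in Zscan4c, 125 in Zscan4d and 91 in Zscan4f. It was in 58 of 32851 RefSeq windows of the same length (0.177%) and was not found in the Zfp352 window. Of the 20 genes of the members and the wider 2-cell-stage list that had a window, the 4 with this motif were Zscan4b, Zscan4c, Zscan4d and Zscan4f. TATAAA lay 54, 65 and 31 bases before the start of Zscan4c, Zscan4d and Zscan4f and was in 12.4% of all windows. TAATCC occurred 9 times in the Zfp352 window and in no window of the 3 Zscan4 members. Among the same 20 genes 7 had TATAAA, the other ones being Zscan4b, Usp17lb, Usp17lc and Usp17ld, and 7 had TAATCC, with AF067061, BC147527, Gm21761, Gm4340, Sp110 and Tdpoz1 beside Zfp352. At least 1 TAATCC was in 6.25% of all windows, and the Zfp352 window was the 1 among 32851 that held 5 or more. Its 9 matches were all on the strand of the gene, 20 to 21 bases apart, over a stretch of 172 bases. Windows that also take in the first bases of the transcript were 97.2% to 99.3% identical between Zscan4 members where they aligned, so the shared matches are not separate observations. A match is a stretch of letters and no measurement of binding.

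The library of replicate 1 totalled 23716499 counts and that of replicate 2 totalled 20275749. An observed 0 therefore leaves room for as many as 3 counts, equal to 0.126 and 0.148 per 1000000 counts (CPM). Replicate 2 was lower than replicate 1 for 10202 of 14536 genes with at least 10 counts, and the median log2 ratio of replicate 2 over replicate 1 was -0.31. All 10 ES cell markers were counted in both libraries, with a median of 536 TPM (transcripts per 1000000) and Tdgf1 the highest at 3501 ± 165 (SD, n = 2). With exonic length, introns left out, their median was 158 TPM. Fibroblast markers, which feeders would bring, summed to 12.1 CPM in replicate 1 and 7.15 in replicate 2, with 4 of 10 at 10 counts or more and Lum at 0. Fbln1 held most of these counts (226 and 127), and Thy1, the highest at 2.25 ± 2.69 TPM, had 32 counts in replicate 1 and 2 in replicate 2. Primitive endoderm markers summed to 61.9 and 46.3 CPM, with Lama1 the highest at 3.94 TPM. Trophoblast markers summed to 49.2 and 39.2 CPM, with Cdx2 at 0 and Tfap2c, which mESCs can also express, the highest at 52.1 TPM. Eomes, on the same list, had 396 and 243 counts (30.3 ± 4.62 TPM), close to the level of Zscan4d.

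As a set, the 6 members were present at low levels in both libraries, and their Zscan4 genes made up most of their counts. The wider list of other 2-cell-stage genes, described below, held 2853 and 2226 counts. The 6 members together gave 499 counts in replicate 1 and 371 in replicate 2, or 21.0 and 18.3 CPM. In TPM, a level per length that was computed with the deposited length of each gene (its transcribed span, introns included), their sum was 76.4 and 71.0, a mean of 73.7 ± 3.88 (SD, n = 2). With exonic length the mean of the sum was 30.4 TPM. Zscan4c, Zscan4d and Zscan4f held 404 of the 499 and 330 of the 371 counts. Tcstv1 and Tcstv3 together held 20 and 3.

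Zscan4d (chromosome 7, 11161642 to 11166148, minus strand, mm10) was the highest member by CPM and by TPM, though not per kb of unique sequence. It had 194 counts in replicate 1 and 172 in replicate 2, or 8.18 CPM (95% exact Poisson interval 7.07 to 9.42) and 8.48 CPM (7.26 to 9.85). These intervals cover counting error only, since reads lacked molecular identifiers and repeat copies of 1 molecule count separately. Its level was 31.4 ± 3.36 TPM (SD, n = 2), above 82.3% of all genes in the table on that length, 67.8% with exonic length and 65.2% by CPM. The 2 replicates overlapped within their counting intervals.

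Zscan4c (chromosome 7, 11005744 to 11010547, plus strand) followed with 133 and 81 counts, or 5.61 and 3.99 CPM. At 16.8 ± 2.65 TPM it was above 75.9% of genes, 62.3% with exonic length and 60.2% by CPM. Zscan4f (chromosome 7, 11397914 to 11402318, plus strand) had 77 counts in each library, or 3.25 and 3.80 CPM, and 13.6 ± 2.61 TPM. Zscan4c was higher in replicate 1 and Zscan4f in replicate 2, and the TPM values of Zscan4c (18.7 and 14.9) and Zscan4f (11.8 and 15.5) overlapped.

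Zfp352 (chromosome 4, 90218819 to 90225687, plus strand) had 75 and 38 counts, or 3.16 CPM (2.49 to 3.96) and 1.87 CPM (1.33 to 2.57). Its level was 6.13 ± 1.74 TPM, above 65.1% of genes, 56.1% with exonic length and 54.5% by CPM. With almost all of its words unique, its count is the one least exposed to copies.

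Tcstv3 (chromosome 13, 120316861 to 120318261, plus strand) had 18 counts in replicate 1 and 3 in replicate 2, or 0.759 CPM (0.450 to 1.20) and 0.148 CPM (0.0305 to 0.432). Its gene is short, so this came to 8.66 and 1.90 TPM, a mean of 5.28 ± 4.78. Tcstv1 (chromosome 13, 119893386 to 119894785, minus strand) had 2 counts in replicate 1 and 0 in replicate 2. That is 0.0843 CPM and a count of 0 that allows up to 0.148, so Tcstv1 was at the limit of detection at this depth.

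**Figure D1:**
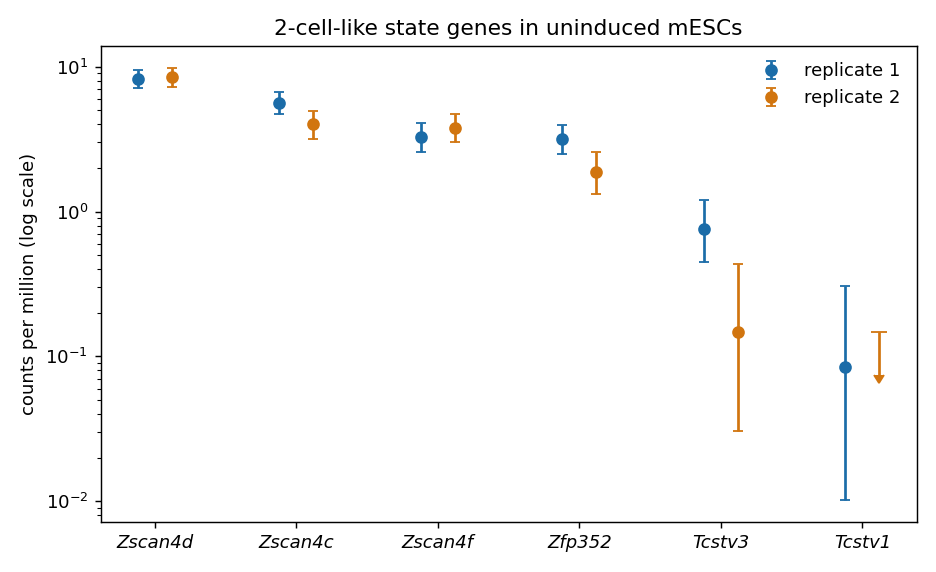
CPM (counts per 1000000, log scale) of the 6 genes in each replicate, with 95% exact Poisson intervals of the count; the arrow starts at 0.148 CPM, the 3 counts that the 0 of Tcstv1 in replicate 2 leaves room for. Values run from 8.18 and 8.48 for Zscan4d down to 0.0843 and 0 for Tcstv1.

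By TPM on the deposited length the order was Zscan4d, Zscan4c, Zscan4f, Zfp352, Tcstv3 and Tcstv1. The replicate ranges of Zscan4c and Zscan4f overlapped, as did those of Zfp352 and Tcstv3, and the other neighbours in the order did not. The order was the same with exonic length, where the levels were 11.9 ± 0.821 TPM for Zscan4d, 6.80 ± 1.33 for Zscan4c, 6.25 ± 0.961 for Zscan4f, 3.56 ± 1.14 for Zfp352 and 1.85 ± 1.71 for Tcstv3. It changed when only unique words were taken as length. Zscan4f then came first with 10.5 ± 1.16 CPM per kb of unique words, Zscan4c had 9.51 ± 2.26 and Zscan4d 6.05 ± 0.156. The replicate ranges of Zscan4f and Zscan4c overlapped on this scale and that of Zscan4d lay below both. This order is given for words of 81 bases only. With words of 200 bases the unique words rose from 505 to 1052 for Zscan4c and from 1378 to 1936 for Zscan4d. Levels per kb of those words were not computed. Zfp352 (1.17 ± 0.424) and Tcstv3 (0.743 ± 0.708) stayed under the Zscan4 genes. Which Zscan4 member is called highest therefore depended on the length used. That each Zscan4 member had a higher mean than Zfp352 and Tcstv3 did not. Without a length, the counting intervals of Zscan4f (2.56 to 4.06 CPM) and Zfp352 (2.49 to 3.96) overlapped in replicate 1 and did not in replicate 2.

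**Figure D2:**
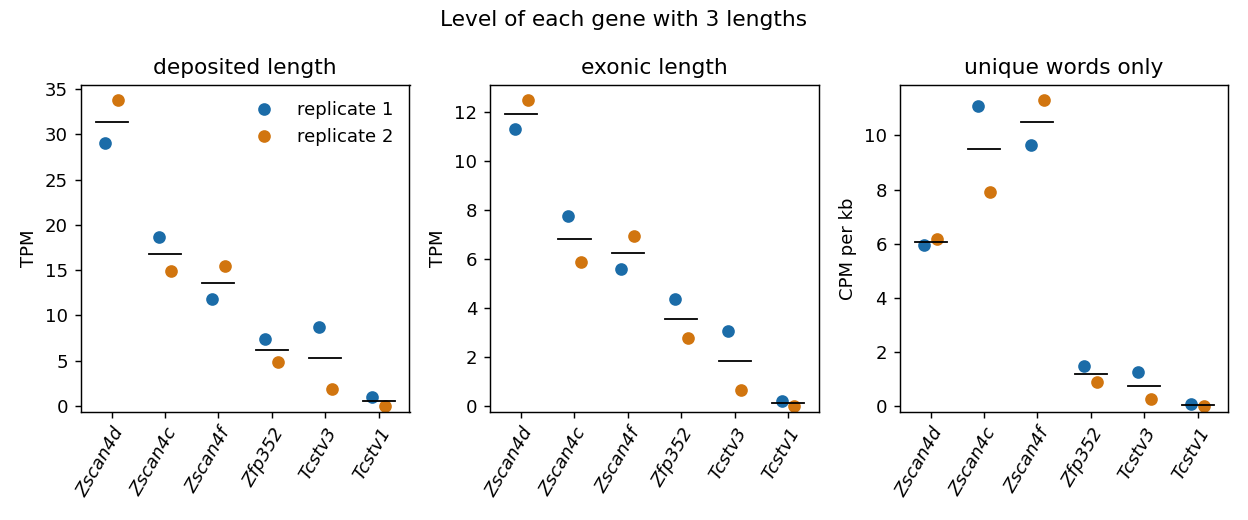
Level of each gene in both replicates (points) with the mean (line), as TPM with the deposited span length, as TPM with exonic length, and as CPM per kb of unique 81-base words. Zscan4d leads in the first and second panels at 31.4 and 11.9 TPM and lies below Zscan4c and Zscan4f in the third at 6.05 CPM per kb.

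The members lie among other copies of the family. The Zscan4 cluster spans 608 kb of chromosome 7 and held 6 genes of the table, all Zscan4. Zscan4a, annotated as an unprocessed pseudogene, had 227 and 151 counts (29.7 ± 2.84 TPM), and its replicate range overlapped that of Zscan4d. Zscan4e had 62 and 58 (10.8 ± 1.57 TPM) and Zscan4b 59 and 50 (9.74 ± 0.734 TPM). The 6 copies together had 752 counts in replicate 1 and 589 in replicate 2, or 112 ± 2.79 TPM. On either side the cluster was silent at this depth. The nearest genes, Nlrp4b and Vmn1r71 before it and Vmn1r72 and Vmn1r73 after it, had 0 counts in both libraries. The 19 vomeronasal receptor genes of the Vmn1r family within 1000 kb held 1 count in replicate 1 and 0 in replicate 2.

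**Figure D3:**
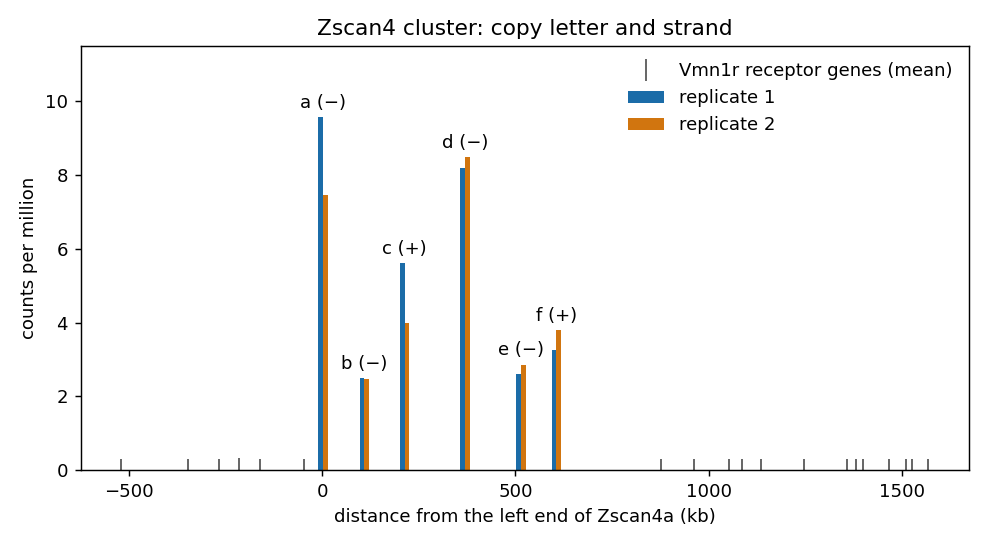
CPM in replicates 1 and 2 along the Zscan4 cluster, by distance in kb from the left end of Zscan4a, with bars drawn wider than the genes and ticks for the Vmn1r receptor genes. The 6 copies stand at 2.47 to 9.57 CPM among receptor genes that held 1 count in all.

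Counts over the 6 copies followed the amount of unique sequence in each. The highest copy exceeded the lowest 3.22-fold by TPM on the deposited length, 2.71-fold with exonic length and 1.73-fold per kb of unique words. Across the 6 copies, which share libraries and sequence, summed counts and the number of unique words had a Pearson's r of 0.969 (Spearman's rho 0.886), given as a description. Zscan4d held 34.7% of the unique words of the 6 copies, and 25.8% (exact binomial 95% interval 22.7 to 29.1) and 29.2% (25.6 to 33.1) of their counts. Its counts were below its share of unique 81-base words in both replicates. Zscan4f held 8.46% of the unique words, and 10.2% (8.17 to 12.6) and 13.1% (10.5 to 16.1) of the counts. Its interval lay above the share of unique words in replicate 2 and held it in replicate 1. Zscan4c, with 12.7% of the words, was above its share in replicate 1 at 17.7% (15.0 to 20.6) and within counting error of it in replicate 2 at 13.8% (11.1 to 16.8). These comparisons with unique words are given for words of 81 bases only. With words of 200 bases the unique words rose from 1378 to 1936 for Zscan4d, from 505 to 1052 for Zscan4c and from 336 to 503 for Zscan4f. Whether a copy lies above or below its share of those longer words was not tested. The study's pipeline for chromatin RNA drops reads with more than 1 alignment, and whether it was used for these mRNA libraries is not stated. The part of copy number and alignment in these counts was not tested.

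**Figure D4:**
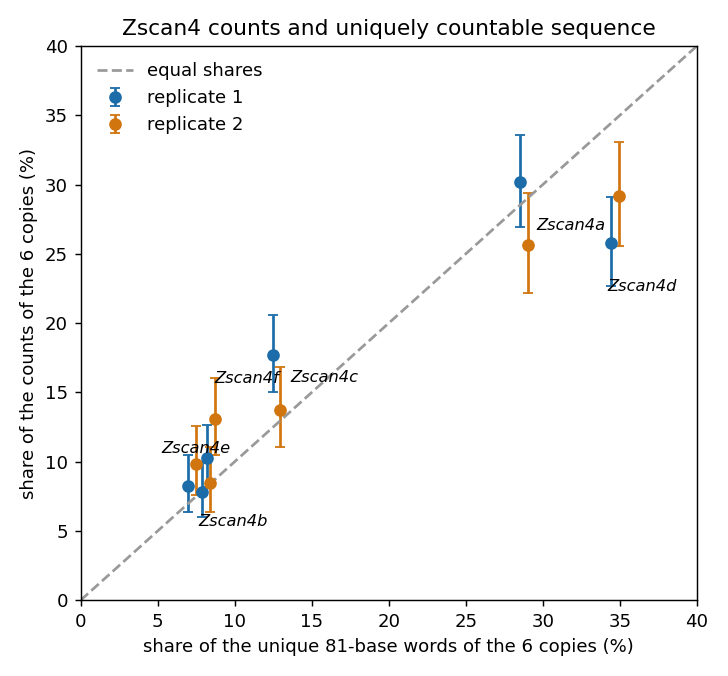
Share of the counts of the 6 Zscan4 copies taken by each copy in each replicate (exact binomial 95% intervals) against its share of their unique 81-base words, with a dashed line of equal shares. Zscan4a and Zscan4d, with 28.8% and 34.7% of the words, hold the largest shares of counts, and Zscan4d lies below the line.

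Around Tcstv1 and Tcstv3 the table lists other genes of the same 2-cell-stage group on chromosome 13. AF067063, 63.2 kb before Tcstv1, had 2 and 0 counts, B020031M17Rik, 54.6 kb after it, had 0 in both, and Gm20767 farther on had 7 and 1. Zfp131, a zinc finger gene 103 kb before Tcstv1 and outside that group, had 3418 and 3272. AF067061 had 50 and 4 counts 52.3 kb before Tcstv3, and BC147527 had 70 and 23 at a distance of 8.02 kb. No gene of the table followed Tcstv3 on the chromosome. Zfp352 stands alone. Its nearest genes were Gm12633 at 134 kb with 0 counts in both libraries, Dmrta1 at 524 kb with 3 and 5, Cdkn2b at 908 kb with 60 and 24 and Elavl2 at 1025 kb with 3548 and 3482.

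The 2 libraries were then compared for each member. Its counts were set against the library totals in an exact binomial test (two-sided), with Benjamini-Hochberg adjustment over the 14536 genes with at least 10 counts. Of the 6 members 5 could be tested and 3 passed at 0.05, all lower in replicate 2. Of all genes tested 60.8% passed, 45.7% lower and 15.1% higher in replicate 2, so passing was the common case. Tcstv3 had a log2 ratio of -2.18 (exact test, adjusted p = 0.00688) and rests on 21 counts. The log2 ratio of Zfp352 was -0.75 (exact test, adjusted p = 0.0149) and that of Zscan4c was -0.49 (exact test, adjusted p = 0.0284). Zscan4d (log2 ratio 0.05) and Zscan4f (0.23) did not pass, with adjusted p of 0.812 and 0.413 in the exact test. All 10 ES cell markers also passed as lower in replicate 2, from a log2 ratio of -0.15 for Klf4 to -3.06 for Dppa5a, and with TMM factors 6 passed as lower and 2 as higher. The fibroblast markers Thy1 (log2 ratio -3.47) and Fbln1 (-0.60) were lower in replicate 2 as well, and with TMM factors Thy1 still passed and Fbln1 did not (adjusted p = 0.0594). With the GC trend between the libraries the log2 ratio of Fbln1 turned to 0.09 (adjusted p = 0.700). Of the ES cell markers, Klf4 (log2 ratio 0.54) and Sall4 (0.27) then passed as higher in replicate 2. Nanog and Klf2 did not pass with that trend, and the other ES cell markers still passed as lower. The part of these shifts in the values of the members was not tested. Zscan4d had a fold of 1.04 between the libraries with an interval of 0.840 to 1.28, and Zscan4f 1.17 with 0.842 to 1.63.

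Which members passed depended on the scaling between the libraries. With edgeR's TMM factors, which move every log2 ratio up by 0.26, only Tcstv3 of the members passed (log2 ratio -1.91, adjusted p = 0.0242), beside 57.8% of all genes tested at that scaling, 28.6% lower and 29.1% higher in replicate 2, and Zfp352 (adjusted p = 0.133) and Zscan4c (0.386) did not. With DESeq2 size factors, where 57.8% of all genes passed too, 26.1% lower and 31.6% higher in replicate 2, Tcstv3 passed again (adjusted p = 0.0251), and Zscan4d (log2 ratio 0.36, adjusted p = 0.0303) and Zscan4f (0.54, adjusted p = 0.0385) passed as higher in replicate 2. Tcstv3 was lower in replicate 2 with each scaling tried. Summed over Zscan4c, Zscan4d and Zscan4f, the exact Poisson interval was 15.4 to 18.8 CPM in replicate 1 and 14.6 to 18.1 CPM in replicate 2, so the summed Zscan4 level overlapped between the libraries.

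**Figure D5:**
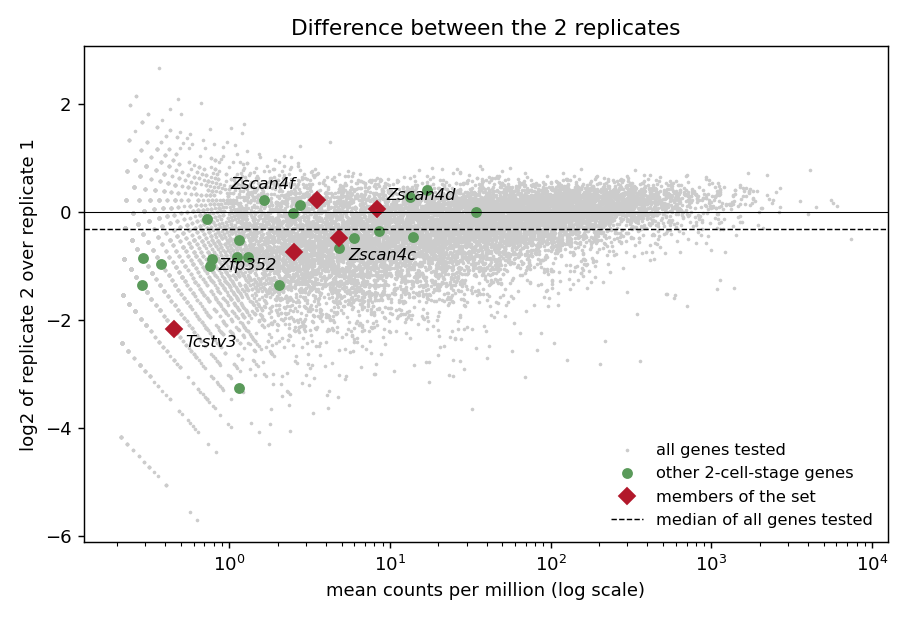
Log2 ratio of replicate 2 over replicate 1 against mean CPM (log scale) for 14536 genes with at least 10 counts (grey), with 5 members of the set (red diamonds) and the other 2-cell-stage genes (green). The dashed line is the median of all genes at -0.31; Zscan4d and Zscan4f lie above 0, Zscan4c and Zfp352 below the line, and Tcstv3 at -2.18.

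Other genes of the 2-cell stage were detected alongside. Of 40 listed genes 31 were in the table and 21 had at least 10 counts. The median level of the 31 was 2.19 TPM on the deposited length, beside 1.35 for all genes of the table, and 1.57 TPM with exonic length, beside 1.84. The most counted were Gm5662 with 809 and 693 counts (150 ± 12.4 TPM), Gm8300 with 345 and 393 (73.4 ± 20.6 TPM), Gm2016 with 380 and 235 (61.3 ± 8.99 TPM) and Gm2022 with 287 and 296 (58.5 ± 12.5 TPM), each above the 3 Zscan4 members in TPM. How much sequence they share with copies elsewhere was not measured. Also among the 10 most counted were the other Zscan4 copies, Sp110, a nuclear body gene, with 165 and 101 counts (3.72 ± 0.572 TPM), Gm12794 with 139 and 75 (28.8 ± 6.96 TPM) and BC147527 with 70 and 23. Dux itself, B020031M17Rik and D5Ertd577e were at 0 in both libraries, which leaves room for 0.126 and 0.148 CPM. Dux lies in a tandem array of copies, whose part in this 0 was not tested. Of the 21 genes 8 passed the test between replicates (38.1%, beside 60.8% of all genes), 6 lower and 2 higher in replicate 2. The lower ones were Gm2016, Zscan4a, Sp110, Gm12794, BC147527 and AF067061, and the higher ones Gm8300 and Gm2022. With TMM factors 5 of the 21 passed (beside 57.8% of all genes), BC147527 and AF067061 as lower and Gm5662, Gm8300 and Gm2022 as higher, so the split changed with the scaling. With the GC trend (45.6% of all genes passed) Gm5662 passed as lower (log2 ratio -0.305), and Gm8300, Gm2022 and Sp110 did not pass. Gm2016, Zscan4a, Gm12794, BC147527 and AF067061 passed as lower with that trend too. The neighbours of Tcstv3 were among the lower ones, AF067061 with a log2 ratio of -3.26 and BC147527 with one of -1.36.

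The 5 listed factors that, besides Dux, are known to switch the programme on were detected in both libraries. Dppa4 had 2190 and 677 counts (98.3 ± 58.7 TPM), Dppa2 956 and 709 (68.8 ± 1.30), Tbx3 1391 and 1043 (67.1 ± 0.746), Nelfa 492 and 505 (10.2 ± 2.14) and Gata2 32 and 28 (2.77 ± 0.271). Dppa2 and Dppa4 are partner proteins that act upstream of Dux. Between replicates 4 of these 5 passed the test (80.0%, beside 60.8% of all genes), with Dppa4, Dppa2 and Tbx3 lower and Nelfa higher in replicate 2. With TMM factors Dppa4 and Nelfa still passed, and Dppa2 (log2 ratio 0.06, adjusted p = 0.519) and Tbx3 (0.07, adjusted p = 0.295) did not and turned direction. With the GC trend Tbx3 passed as higher (log2 ratio 0.48) and Dppa2 as lower (-0.20). Dppa4 and Nelfa passed with their direction kept. With library totals Dppa4 showed the largest gap, a log2 ratio of -1.47.

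Factors known to hold the programme down were, by their median, more abundant than the members. All 23 were tested, at 6.52 to 830 TPM with a median of 95.5 TPM, above the summed 73.7 TPM of the 6 members. The most counted were Rif1 (830 ± 159 TPM), Atrx, Mga, Ncl, Zfp42, Smchd1, Zmym2, Kdm1a, Max and Pcgf6, among them chromatin proteins and, with Mga, Max and Pcgf6, subunits of a variant Polycomb complex. Between replicates 17 of 23 passed (73.9%, beside 60.8% of all genes), 11 lower and 6 higher in replicate 2, and with TMM factors 22 passed (beside 57.8% of all genes), 10 lower and 12 higher.

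Genes of the maternal oocyte served as a contrast, since the oocyte contributes RNA to the 2-cell embryo but not to mESCs. Of 16 such genes, all of them in the table, 7 had at least 10 counts and Zp1, Nlrp5, H1foo and Oog1 were at 0 in both libraries. The median was 0.335 TPM, against 9.88 for the members, whereas the sum was 1519.5 TPM in replicate 1 and 667 in replicate 2, above the sum of the members. The highest was Ooep, a maternal effect gene that mESCs also express, at 1002 ± 546 TPM on the deposited length and 153 ± 88.2 with exonic length. Khdc3, which acts with it in the egg, had 371 and 92 counts and was also above every member in mean TPM.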

How the data were processed

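Messenger RNA of 2 replicates of uninduced iXist-ChrX-Dom mESCs was analysed. The authors deposited a table of counts per gene made with featureCounts (1.5.2 per the file headers), counting fragments on the reverse strand over transcript spans on mm10, so that intronic fragments count too. The submitters' processing notes name Bowtie2 2.3.2 and STAR 2.4.2a. The study's chromatin RNA pipeline discards ribosomal reads with Bowtie2, aligns the rest by STAR on mm10 with variant bases masked, keeps reads with 1 alignment and counts with the same featureCounts feature and strand settings as this table. That the mRNA libraries went through it is not stated outright. Column names lack a letter that the sample descriptions carry, and columns were matched by the rest of the name. Members and lists were chosen with earlier results of these data known.

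CPM used library totals. TPM used the deposited length column (spans with introns), the union of GENCODE M21 basic exons (22192 genes, 98.4%) or, for CPM per kb, unique 81-base words among GENCODE M21 transcripts, a choice made after seeing that no genome was at hand. Log2 ratios were taken after adding 0.5 counts. Genes with 10 or more counts in all entered the replicate test, an exact binomial test (two-sided) with p-values adjusted by Benjamini-Hochberg and a threshold of 0.05 (scipy 1.17.1, Python 3.11.15). The test was also run on simulated Poisson counts. Those held only counting error and a set of changed genes, so they do not show its error rate on these libraries. Alternatives were TMM factors (edgeR 4.0.16, R 4.3.3), DESeq2 1.42.0 size factors, a GC trend of degree 3 on autosomal genes (50 counts or more in both libraries), and other count minimums. The genes named were the members, all Zscan4 copies and Tcstv genes, up to 10 genes a list by mean CPM with at least 10 counts, the 2 nearest genes on each side of each locus, and the highest marker or oocyte gene by TPM. Lum, Cdx2, Eomes, Fbln1, Khdc3, Klf4, Dppa5a and the genes at 0 were named after their values were seen, as were Zscan4-ps2, AF067061 as a passing gene and the genes that share a motif.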

Additional observations from a re-analysis of the deposited data

How the results depend on the processing

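The summed level of the 6 members was 73.7 TPM as reported, 71.0 or 76.4 TPM when 1 replicate was left out, and 30.4 TPM with exonic length. Without a length it was 19.7 CPM, with TMM factors 19.6 CPM and with unique words as length 28.0 CPM per kb, which are other units. The number of members past the replicate test fell from 3 to 1 with TMM factors. With DESeq2 size factors it was 3, but Zscan4d and Zscan4f took the place of Zscan4c and Zfp352. It was 3 with the GC trend (beside 45.6% of all genes tested) and with no minimum count (beside 48.5%), and 2 with at least 10 counts in each library (beside 65.2%), where Tcstv3 was not tested. The log2 ratio of Zscan4d turned from 0.05 to -0.023 with the GC trend (exact test, adjusted p = 0.962). Over all genes, 75.1% of those that passed were lower in replicate 2 with library totals, 49.6% with TMM factors, 45.2% with DESeq2 size factors and 47.4% with the GC trend, and the number that passed was 8842 with library totals and 6576 with the GC trend. Of 24 values of a member's replicate difference under these alternatives, 17 kept both direction and side of the threshold. Detected 2-cell-stage genes numbered 25 at 3 counts, 21 at 10 and 15 at 50.

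With 2 libraries and no second group, spread between conditions was not measured. Tcstv1 and Tcstv3 rest on 2 and 21 counts. No genome was at hand, so copies outside the annotation were not seen, and uniqueness on the genome was not computed. No paired analysis was possible because only 1 group was sequenced.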
